A study of Homo sapiens with 18 samples.

Results

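The arrays labelled Panc0403 and Panc0504 fell into 2 expression states, and these are described here as the 2 arrays titled replicate 2 against the 4 arrays titled replicates 1 and 3. These 6 arrays were all of those carrying either name, of 18 in the series. The contrast was chosen because the replicate 2 arrays were already known to be unlike the others, so its differences describe the states and are not tested; p-values are printed only for comparisons that the choice did not use. Each array is called by its labelled line and replicate number, and no line name was reassigned.

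The series measured total RNA of 6 established human pancreatic cancer cell lines, 3 arrays per line, on Illumina HT-12 v4 BeadChips, whose beads carry an oligonucleotide probe for each transcript. Panc0403 and Panc0504 were labelled as sensitive to dasatinib, a kinase inhibitor that blocks SRC family and ABL kinases. No treatment of the cells is named in the labels, and the 3 arrays of a line are described there as biological triplicates, so all 6 arrays represent untreated cultures as far as the labels go. The array codes put all 6 on a single slide, here slide 1, with Panc1005 and SU8686 on slide 2 and MiaPaCa2 and Panc1 on slide 3.

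Pancreatic ductal adenocarcinoma commonly loses the tumour suppressors CDKN2A and SMAD4. CDKN2A encodes p16, which holds back the cell cycle by inhibiting CDK4 and CDK6, and the ARF protein, which stabilises p53. SMAD4 is the shared partner of the receptor-activated SMADs and carries TGF-beta and BMP signals to the nucleus. CDH2 encodes N-cadherin, the adhesion molecule that mesenchymal cells carry, whereas epithelial cells rely on E-cadherin, encoded by CDH1.

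Intensities were background-corrected, quantile-normalized and put on a log2 scale, on which a probe without signal read about 4.6 to 6. A probe was called detected where the authors' detection p-value was under 0.01, and each gene was read by a single probe. On the 6 arrays 31.7% to 33.2% of all probes were detected, and 10526 genes were detected on at least 2 of them. Across these genes the 2 replicate 2 arrays correlated with each other at 0.989 and with the 4 other arrays at 0.834 to 0.867, while the 4 arrays of replicates 1 and 3 correlated among themselves at 0.956 to 0.996. These are correlations across genes, which are not independent replicates. The spread within a state was small beside the differences between states, with a median SD of 0.126 over the 2 replicate 2 arrays and 0.217 over the 4 others.

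A gene was counted as called where the limma adjusted p was under 0.05 and the log2 difference at least 1. By that rule 2228 of 10526 genes, or 21.2%, were called, 1100 higher in replicate 2 (10.5%) and 1128 lower (10.7%). All 2228 had the same sign in Panc0403 and in Panc0504, and 1668 reached a difference of 1 in each. Disagreement between the labels enters the error of this fit, so a shared sign is nearly built into a call. The median difference over all genes was -0.03. Because the contrast was chosen on these values, the shares serve only as the background for the gene lists that follow. Each list count below is to be read beside 10.5% higher and 10.7% lower of all genes. A gene needed detection on only 2 of the 6 arrays, so genes bright on the 2 replicate 2 arrays alone passed that filter. List counts and medians therefore include genes admitted only through the state where they were bright.

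A stricter class held genes that were on in one state and off in the other. It took genes detected on every array of one state and on no array of the other, with means at least 3 apart on the log2 scale. It held 208 genes, 128 on in replicate 2 alone (1.22% of genes tested) and 80 on in replicates 1 and 3 alone (0.76%). The members closest to the limit were CYP4X1, at 3.002, and TFAP2C, at -3.001, and the first genes outside it were SIRPA, at 2.99, and CCDC106, at -2.98. A difference of 5 or more was reached by 33 of the genes on in replicate 2 and by 11 of those off.

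**Figure D1:**
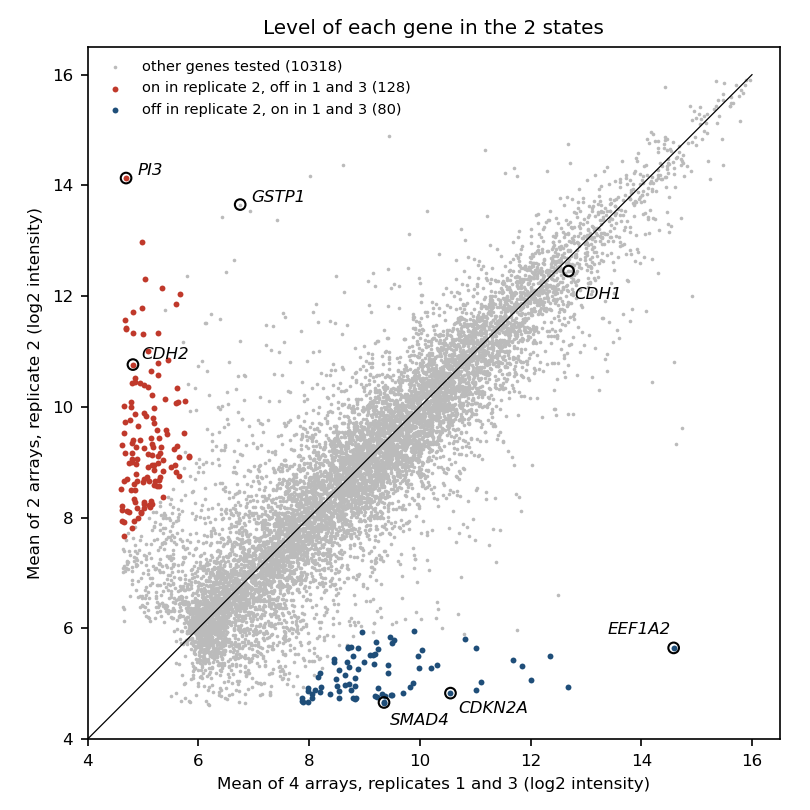
Each point is a gene, placed by its mean normalized log2 intensity over the 4 arrays of replicates 1 and 3 (horizontal) and over the 2 arrays of replicate 2 (vertical), with a line of equality. The 128 genes on in replicate 2 alone form the column at the left and the 80 genes off in replicate 2 the band at the bottom, while CDH1 lies near the line.

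CDKN2A read 4.72 and 4.94 on replicate 2 of Panc0403 and Panc0504, against 10.38 and 10.36 on replicates 1 and 3 of Panc0403 and 10.77 and 10.72 on those of Panc0504. It was not detected on either replicate 2 array, and the groups did not overlap. Where a gene was not detected in a state, its fold is given as a bound against the dimmest detected probes of those arrays, and for CDKN2A this was at least 22.3-fold lower in replicate 2. SMAD4 read 4.67 and 4.65 on the replicate 2 arrays, where it was not detected, against 9.31, 9.20, 9.49 and 9.41 on the others, at least 9.69-fold lower. RNF43, a ubiquitin ligase that restrains Wnt receptors, was the remaining undetected suppressor among those called, at 4.76 and 4.86 against 7.76 to 7.81, at least 3.26-fold lower.

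Of the 26 tumour suppressors of the list with a probe, 21 were tested. Among these 4 were lower and 2 higher, beside 10.7% lower and 10.5% higher of all genes, with a median difference of -0.14. The lower ones were CDKN2A, CDKN2B, SMAD4 and RNF43. The 2 higher genes were TGFBR2, the type II TGF-beta receptor (1.39 ± 0.11, SE), and the histone demethylase KDM6A (1.24 ± 0.13). RB1, the target of the CDK4 and CDK6 kinases, read 7.80 and 7.55 on replicate 2 and 8.13 to 8.85 on the others, below the size needed for a call. ARID1A, SMARCA4, STK11, FBXW7, MAP2K4, ACVR1B and BRCA1 were detected on all 6 arrays and were not called, with differences from -0.14 (FBXW7) to 0.76 (SMARCA4). CDKN1A, the p53-induced inhibitor p21, differed by 0.04. TGFBR1, FHIT, APC, DCC and RUNX3 had a probe but were detected on none of the 6 arrays.

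The neighbours of both genes were read in chromosome order. On chromosome 9, CDKN2B, which encodes the CDK4 and CDK6 inhibitor p15 and lies beside CDKN2A, read 6.07 and 5.72 on the replicate 2 arrays, where it was detected on 1 of 2. On replicates 1 and 3 it read 10.41 and 10.07 in Panc0403 and 11.32 and 11.37 in Panc0504, a difference of -4.90 ± 0.31 (SE). MTAP, a methionine salvage enzyme on the other side of CDKN2A, stayed detected on all 6 arrays, at 9.41 and 9.31 against 10.11 to 10.23. Among the neighbours read, detection was thus lost for CDKN2A and, on 1 of 2 replicate 2 arrays, for CDKN2B. MTAP kept its detection, with a difference of -0.82 that was not called. DMRTA1, the gene after CDKN2B, was higher in replicate 2 by 1.32 ± 0.17.

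On chromosome 18, ME2, a mitochondrial malic enzyme 2 genes from SMAD4, read 5.68 and 5.60 on replicate 2 and was not detected there. Its level on the others was 8.57 to 9.22, at least 6.99-fold higher. MEX3C, an RNA-binding ubiquitin ligase directly after SMAD4, was lower by 1.75 ± 0.10 in log2 and was detected on 1 of 2 replicate 2 arrays. SKA1, a kinetochore protein 5 genes before SMAD4, was lower by 1.04 ± 0.15 and stayed detected. ELAC1, between ME2 and SMAD4, was detected on no array of the 6, and MBD2, 4 genes beyond SMAD4, differed by -0.01. The low run thus included SMAD4, ME2 and MEX3C, with ELAC1 between ME2 and SMAD4 unread. MAPK4 and MRO, between SKA1 and ME2, and DCC, after MEX3C, were also detected on no array of the 6. The ends of the run were therefore not read. Without background correction the calls of MEX3C, SKA1, DMRTA1 and KDM6A ended, at -0.94, -0.65, 0.84 and 0.93. Over all alternative settings the call of SKA1 ended in 7, and those of MEX3C, DMRTA1 and KDM6A in 2 each.

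**Figure D2:**
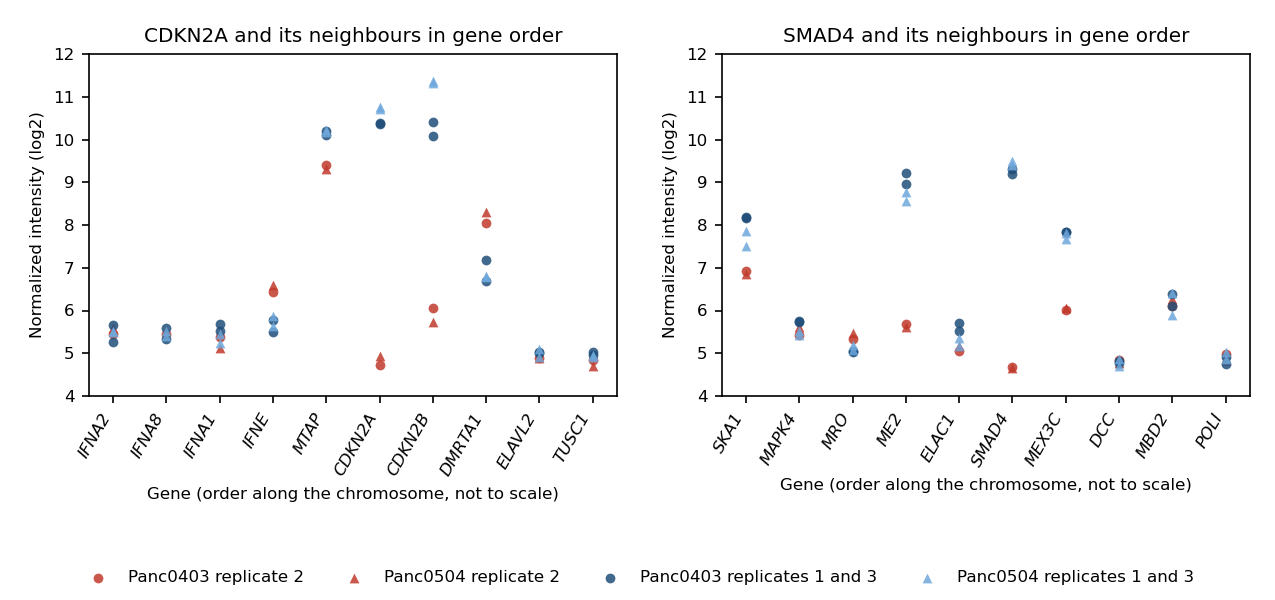
Normalized log2 intensity on each of the 6 arrays (vertical) for CDKN2A, SMAD4 and up to 5 genes with a probe on either side, in chromosome order and not to scale. On the replicate 2 arrays CDKN2A and SMAD4 lie at or below 4.94 while MTAP lies above 9.

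The gene on in replicate 2 with the largest bound was PI3, which encodes the elastase inhibitor elafin. It read 14.10 and 14.16 on replicate 2 against 4.65 to 4.74 on replicates 1 and 3, at least 262-fold higher. The neutrophil chemokine CXCL6 followed at 12.85 and 13.12 against 4.83 to 5.04, at least 118-fold. Other members of the 15 with the largest bounds were DEFB1, an antimicrobial beta-defensin (at least 65.9-fold), EFEMP1, an extracellular matrix protein (54.5-fold), FERMT2, an activator of integrins (51.8-fold), and LTB, a membrane cytokine of the TNF family (49.1-fold). FST, the activin-binding protein follistatin, was at 11.80 and 11.35 against 4.63 to 4.74, at least 44.6-fold higher. FADS1, a fatty acid desaturase, reached at least 39.9-fold, the glutamate transporter SLC1A3 37.7-fold and the acute phase protein SAA1 37.3-fold. ATP6V1B1, BEX3, NETO2, CYBRD1 and HOXB2 completed the 15, with bounds of 29.9-fold (HOXB2) to 73.7-fold (ATP6V1B1). For every 1 of these 15 genes the lowest replicate 2 array lay above the highest of the 4 others, which the rule itself requires.

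Among the genes off in replicate 2 the largest bound was that of EEF1A2. This translation elongation factor normally found in neurons and muscle read 5.73 and 5.56 on replicate 2 against 14.46 to 14.66 on the others, at least 364-fold lower. CEMIP, a protein needed to break down hyaluronan, read 4.99 and 4.88 against 12.58 to 12.79, at least 97.4-fold lower. The serine protease KLK5 was at least 77.5-fold lower, EDAR, the receptor for ectodysplasin, 54.3-fold, NTSR1, a receptor for the peptide neurotensin, 32.6-fold, and GCNT3, a glycosyltransferase that builds mucin sugar cores, 30.7-fold. The glutathione transferases GSTM1 and GSTM2 were at least 61.3-fold and 48.7-fold lower. These 2 genes are near-identical copies, so which of them each probe read is uncertain, and another GSTM1 probe was detected on 1 of 2 replicate 2 arrays, with a difference of -3.51. RPL39L, GSPT2, NLRP2, TESC and the cell surface glycoprotein CEACAM5 had bounds from 15-fold (CEACAM5) to 26.8-fold (RPL39L), and CDKN2A and ID3 were also among these 15.

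**Figure D3:**
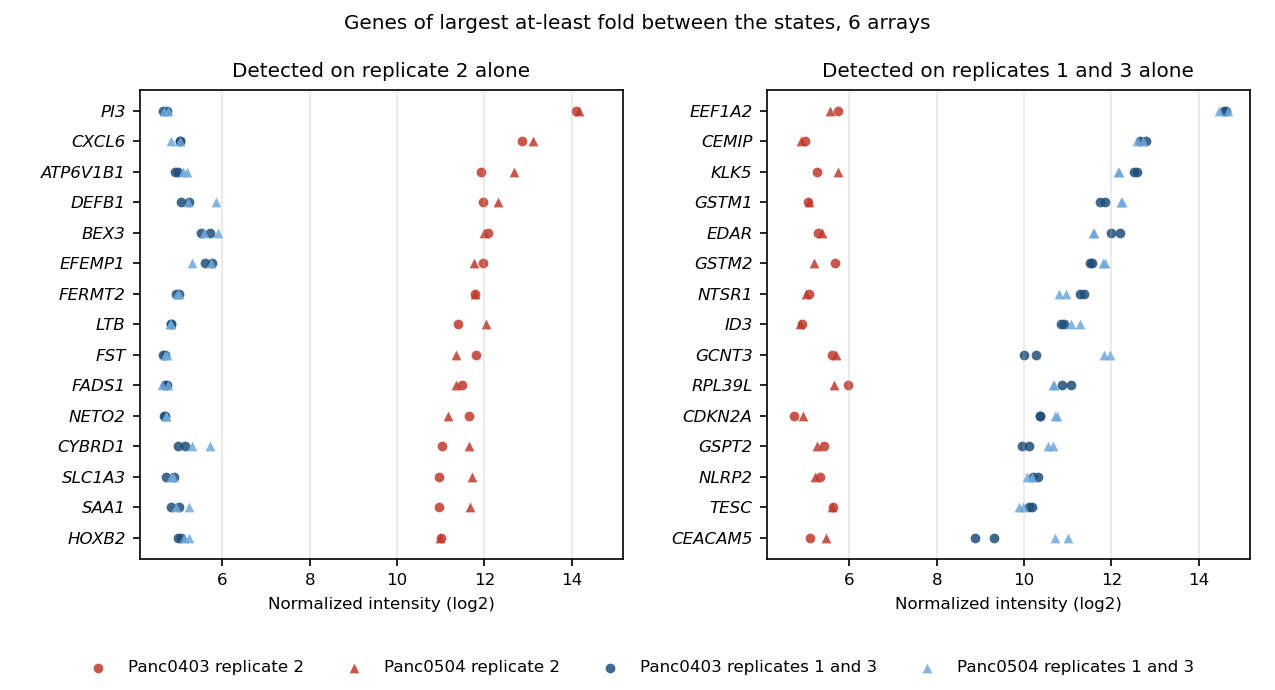
Normalized log2 intensity (horizontal) on each of the 6 arrays for the 15 genes of largest bound detected on replicate 2 alone (left) and the 15 detected on replicates 1 and 3 alone (right). In each row the 2 red points of replicate 2 stand apart from the 4 blue points of replicates 1 and 3.

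The arrays of both states carried epithelial markers. KRT7, KRT8, KRT18, KRT19, EPCAM and CDH1 were detected on all 6 arrays, as were 35 of the 36 tested epithelial junction and keratin genes. CDH1 read 12.29 and 12.61 on replicate 2 and 12.40 to 12.90 on the others, and the groups overlapped. Of the 36 genes 2 were higher and 4 lower, beside 10.5% higher and 10.7% lower of all genes, with a median of -0.21. The exception to shared detection was CLDN3, a tight junction claudin, at 4.74 and 4.83 against 8.72 to 10.07, at least 9.86-fold lower in replicate 2. PPL, a component of desmosomes and the cornified envelope, and ST14, the membrane protease matriptase, fell by 1.38 and 1.36 on the log2 scale, and the mucin MUC1 rose by 1.20.

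CDH2 went the other way. N-cadherin read 10.67 and 10.86 on replicate 2 against 4.83, 4.76, 4.84 and 4.84 on replicates 1 and 3, where it was not detected, at least 25.4-fold higher. CDH6, another classical cadherin, was at 10.69 and 10.59 against 4.92 to 5.51, at least 23.3-fold higher. The giant atypical cadherin FAT1 fell by 2.60 on the log2 scale and stayed detected on all 6 arrays. Of 13 cadherin-group genes tested, 3 were higher and 1 lower, the third higher gene being CDH5, which was dim at 6.04 and 6.74. Transcripts of N-cadherin and E-cadherin were thus detected together on replicate 2, and E-cadherin alone of the pair on replicates 1 and 3.

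Of 26 mesenchymal and motility genes 12 were higher in replicate 2 and 1 was lower, with a median difference of 0.94. GNG11, a G protein gamma subunit, was at 11.20 and 11.84 against 5.70 to 6.65. COL4A1, a basement membrane collagen chain, was at 10.83 and 10.63 against 5.61 to 6.44. ACTA2, smooth muscle actin, rose by 4.17 ± 0.105 (SE), and VIM, the intermediate filament vimentin, rose by 1.26. SERPINE2, a serine protease inhibitor, was the lower gene, by 1.98 on the log2 scale. TAGLN differed by 0.09 and ITGAV by 0.11, neither called. COL4A2, VIM, TAGLN and ITGAV were picked after their values were seen, and COL4A2, which pairs with COL4A1 in the collagen trimer, was at least 2.81-fold higher.

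Of 12 transcription factors of epithelial and mesenchymal state, 1 was higher and 4 were lower. SNAI2, the repressor Slug, read 10.39 and 10.05 against 5.68 to 6.48, a difference of 4.02 ± 0.23 (SE). The epithelial factor ELF5 read 5.72 and 6.24 against 11.64 to 11.92, and KLF4 was not detected in replicate 2, at least 5.51-fold lower. OVOL2 fell by 1.24 and ESRP1, an epithelial splicing regulator picked after its value was seen, fell by 1.02. GRHL2, another epithelial factor, differed by -0.04 and was not called.

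Among 12 pancreatic and endodermal transcription factors 3 were higher and 4 lower. ISL1, a LIM homeobox factor, was at 9.19 and 8.99 against 5.46 to 5.88, at least 7.95-fold higher. NR5A2 and MECOM rose by 1.35 each. ONECUT2 was not detected in replicate 2, at least 5.96-fold lower, the Notch target HES1 fell by 2.10, and SOX2 was at least 2.8-fold lower. The factors FOXA1, FOXA2 and SOX9, picked after their values were seen, differed by -0.21, -0.18 and -0.23 and were not called.

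HOX genes set position along the body axis during development. Of 11 tested, 7 were higher and 1 lower, with a median difference of 2.62. The list had 29 members with a probe, of which 6 were detected on all 6 arrays and 2 were on in replicate 2 alone. HOXB8 read 11.71 and 11.78 on replicate 2 against 5.07 to 6.12, HOXB2 11.01 and 10.99 against 4.99 to 5.22, and HOXB7 9.97 and 10.02 against 5.99 to 6.97. All of HOXB2, HOXB3, HOXB4, HOXB6, HOXB7 and HOXB8 rose, together with HOXC4, and HOXB5 differed by 0.92 without a call. The HOXC4 probe used rose by 3.17, whereas another HOXC4 probe differed by 0.19. These HOXB genes lie side by side in 1 cluster on chromosome 17. HOXA2 fell by 1.66. Those beyond HOXB8, HOXB2, HOXB7 and HOXA2 were picked after their values were seen.

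**Figure D4:**
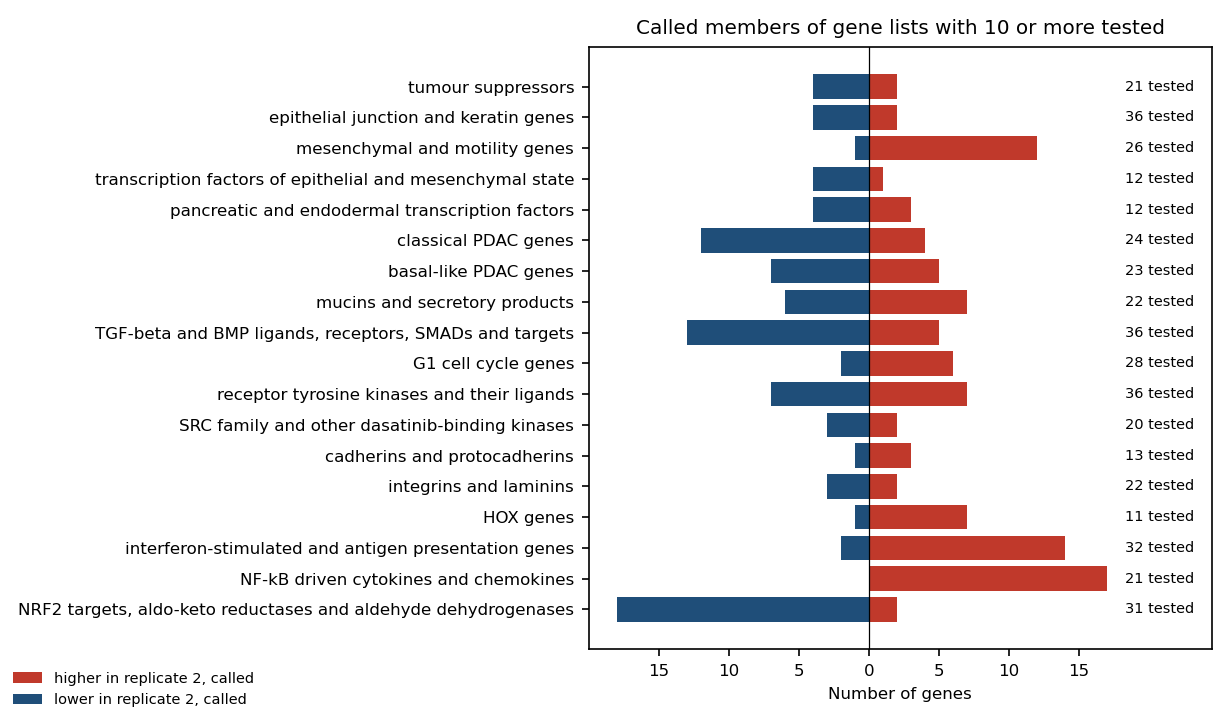
Number of called genes higher (right, red) and lower (left, blue) in replicate 2 for each gene list with 10 or more tested members, whose number stands at the right edge. NF-kB driven genes were called in 1 direction (17 of 21 higher), and the NRF2, aldo-keto reductase and aldehyde dehydrogenase list lay mostly at the left (18 of 31 lower).

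NF-kB is a transcription factor family that cytokines and microbial products activate and that binds a short decamer near the start of chemokine genes. Of 21 tested NF-kB driven cytokines and chemokines 17 were higher in replicate 2 and 0 lower, with a median difference of 2.61, beside 10.5% higher and 10.7% lower of all genes. The list had 30 members with a probe, of which 11 were detected on all 6 arrays and 6 were on in replicate 2 alone. CCL20, which attracts cells through the receptor CCR6, read 12.77 and 11.97 against 5.33 to 6.35, and LTB 11.40 and 12.04 against 4.799 to 4.83. Of the neutrophil-attracting chemokines CXCL6 and CXCL1 were not detected on replicates 1 and 3 and were at least 118-fold and 25.9-fold higher in replicate 2, while CXCL5, CXCL8 and CXCL2 rose by 6.17, 2.61 and 2.23 on the log2 scale. The cytokines IL1B, TNF and IL6, likewise not detected on replicates 1 and 3, were at least 9.01-fold, 2.19-fold and 2.71-fold higher. IL1A rose by 2.10, and the feedback inhibitors TNFAIP3 and NFKBIA by 3.07 and 1.005, the last close to the limit for a call. IL18, CXCL16, LIF and PTGS2 were not called. The list members named here beyond CXCL6, LTB and CCL20 were picked after their values were seen.

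The promoters of 4 of these chemokine genes are shown because they share the form of the kappa-B decamer most frequent in this list, GGGAATTTCC, at a similar distance from the gene start. All 4 genes lie on chromosome 4. The sequences are RefSeq's (GRCh38.p14), 300 bases each, from 250 bases before to 50 after the gene start, written 5′ to 3′ on the gene's own strand with the decamer in capitals.
CXCL6, chr4:73836428-73836727, plus strand: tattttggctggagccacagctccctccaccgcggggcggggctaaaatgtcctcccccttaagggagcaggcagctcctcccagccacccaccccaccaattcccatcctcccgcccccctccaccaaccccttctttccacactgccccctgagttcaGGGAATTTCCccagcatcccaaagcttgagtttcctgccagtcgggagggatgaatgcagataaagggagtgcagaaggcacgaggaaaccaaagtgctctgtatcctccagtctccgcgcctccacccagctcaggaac
CXCL5, chr4:73998628-73998927, minus strand: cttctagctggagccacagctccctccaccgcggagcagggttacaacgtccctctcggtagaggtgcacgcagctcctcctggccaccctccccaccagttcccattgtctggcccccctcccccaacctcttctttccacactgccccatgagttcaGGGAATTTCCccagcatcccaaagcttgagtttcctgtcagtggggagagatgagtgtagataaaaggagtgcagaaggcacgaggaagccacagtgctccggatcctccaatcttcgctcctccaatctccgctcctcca
CXCL1, chr4:73869143-73869442, plus strand: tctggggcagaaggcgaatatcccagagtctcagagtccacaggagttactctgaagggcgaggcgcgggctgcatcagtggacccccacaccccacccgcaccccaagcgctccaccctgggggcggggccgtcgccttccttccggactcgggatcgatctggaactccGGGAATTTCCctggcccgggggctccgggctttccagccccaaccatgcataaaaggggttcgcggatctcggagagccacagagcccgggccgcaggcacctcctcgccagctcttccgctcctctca
CXCL2, chr4:74099146-74099445, minus strand: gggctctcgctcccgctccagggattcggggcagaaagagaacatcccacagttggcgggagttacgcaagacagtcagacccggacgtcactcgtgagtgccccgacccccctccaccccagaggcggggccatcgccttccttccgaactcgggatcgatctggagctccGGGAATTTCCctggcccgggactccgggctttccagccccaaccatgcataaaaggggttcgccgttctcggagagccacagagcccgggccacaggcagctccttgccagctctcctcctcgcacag
In these windows the decamer began at positions -90, -91, -79 and -78 from the gene start in CXCL6, CXCL5, CXCL1 and CXCL2. Around the decamer the windows of CXCL6 and CXCL5 are nearly alike, as are those of CXCL1 and CXCL2. The 4 windows are therefore not independent examples of its presence or position. Searched on both strands, GGGAATTTCC was found in 0.145% of the 35116 RefSeq promoter windows and in 22 of the 8527 tested genes with a window. NFKBIA was the remaining gene of the list that held it, which made 5. The decamer was chosen as the commonest form in this list, with 5 entries against 4 for the next. Its rarity elsewhere is therefore no test. The broader kappa-B consensus allows other letters at several positions and includes this decamer. It was found in 10 of the 16 called members with a window (62.5%) and in 58.8% of the 17 tested members with one. Over all tested genes with a window the share was 17.1%, and over all windows 11.3%. The list was drawn up as NF-kB driven genes, so an excess over all genes is expected from membership and says nothing of the states. Called and uncalled members could not be compared, since 1 uncalled member had a window. The consensus was present in 25.6% of 90 genes on in replicate 2 and in 16.1% of 56 genes off in it. A match describes the letters and does not show that a factor bound there.

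Interferon-stimulated and antigen presentation genes had 14 of 32 higher, 2 lower and a median of 0.97. IFI27 read 15.003 and 14.77 against 8.95 to 9.94, the antiviral synthetase OAS2 10.25 and 10.60 against 5.23 to 6.56, and the antiviral GTPase MX1 11.30 and 11.80 against 7.74 to 9.01. IRF7, a factor that drives type I interferon genes, went the other way, at 5.73 and 5.27 against 9.88 to 10.06, at least 14.8-fold lower. ISG20 fell by 1.01, a call that 9 of the alternative settings ended. B2M, the light chain of class I molecules, picked after its value was seen, differed by -0.20 and was not called.

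Genes of the TGF-beta and BMP pathway were lower more often than higher, with 13 of 36 lower, 5 higher and a median of -0.72. Among ligands and their binders FST, LTBP2 and TGFB3 were higher, FST by at least 44.6-fold, and LTBP2 and TGFB3, a latent-TGF-beta binder and a ligand, by at least 3.35-fold and 2.23-fold. Other ligands and binders were lower, namely GDF15 by 2.91 and LTBP3 by 2.71 on the log2 scale, and the inhibin subunits INHBB and INHBE by at least 3.77-fold and 4.46-fold. The receptor TGFBR2 was higher and the co-receptor ENG at least 2.08-fold lower. Among the transducers SMAD4 was off while SMAD2 and SMAD3 were not called, at 0.24 and 0.60. ID3, a dominant-negative partner of helix-loop-helix factors that BMP signals induce, read 4.91 and 4.87 against 10.84 to 11.27, at least 30.8-fold lower. ID1 fell by 3.74 to a mean of 10.45 ± 0.101 (SD, n = 2) from 14.19 ± 0.135 (SD, n = 4), and ID2 fell by 3.09. SMAD7, the inhibitory SMAD, fell by 1.13. GDF15, LTBP3, INHBB, INHBE, ID1, ID2, SMAD2, SMAD3 and SMAD7 were picked after their values were seen.

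NRF2, a transcription factor released by oxidative stress or by loss of its inhibitor KEAP1, drives glutathione and detoxification enzymes. Of 31 genes in the list of its targets, aldo-keto reductases and aldehyde dehydrogenases, 18 were lower in replicate 2 and 2 higher, with a median of -1.38. AKR1C2, a steroid-metabolising aldo-keto reductase, read 6.34 and 6.86 against 11.48 to 13.46. ALDH3A1 read 9.65 and 9.59 against 14.50 to 14.90, and AKR1C4 7.77 and 7.79 against 10.60 to 12.21. The AKR1C genes resemble each other closely, so which of them a probe read is uncertain. The core targets NQO1, TXNRD1, GCLM, GCLC and SLC7A11 fell by 1.27, 1.38, 1.92, 2.81 and 3.11 on the log2 scale, and HMOX1 was at least 6.6-fold lower, all picked after their values were seen. GSTP1, a glutathione transferase, was the exception, at 13.61 and 13.70 against 6.58 to 6.86, and ALDH5A1 rose by 2.21.

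Subtype genes of pancreatic cancer did not move as a block. Of 24 classical genes 4 were higher and 12 lower (median -0.82), and of 23 basal-like genes 5 were higher and 7 lower (median -0.41). In the classical list ANXA10 read 12.74 and 12.56 against 5.56 to 7.69, and VSIG2 was at least 26.8-fold higher, whereas the trefoil peptide TFF1 was at least 6.42-fold lower. CEACAM6 read 9.53 and 9.14 against 14.45 to 14.81, and its close relative CEACAM5 5.10 and 5.46 against 8.88 and 9.32 in Panc0403 and 10.72 and about 11 in Panc0504. These CEACAM genes are similar in sequence, and cross-reading between their probes was not tested. In the basal-like list LY6D and ANXA8 were at least 12.7-fold and 11.8-fold higher, although ANXA8 has near-identical copies. SPRR3, a cornified envelope protein, was at least 8.91-fold lower. The keratin KRT16 was called lower by a probe that read 5.42 and 5.70 against 7.43 to 8.74, whereas another KRT16 probe differed by 0.20.

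Mucins and secretory products were split, with 7 of 22 higher and 6 lower and a median of 0.04. The protease inhibitor SLPI read 12.23 and 12.60 against 8.29 to 10.004, and PIGR, the transporter of secretory antibodies, was at least 5.28-fold higher. PI3, PIGR and SLPI led upward and GCNT3, CEACAM6 and CEACAM5 downward.

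Growth factor genes moved in both directions. Of 36 receptor tyrosine kinases and ligands 7 were higher and 7 lower. The ligands FGF2 and GAS6 rose by 3.73 ± 0.18 and 3.55 ± 0.26 (SE), and the ephrin EFNB1 by 3.45. MERTK, a receptor for GAS6, read 5.89 and 5.70 against 9.37 to 9.80, a difference of -3.74, while another of its probes was detected on all 6 arrays and differed by -1.70. FGFR3 was at least 5.5-fold lower and the ligand FGF19 at least 3.95-fold. EGFR, ERBB2 and MET, picked after their values were seen, differed by -0.68, -0.36 and -0.21 and were not called.

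Of 20 tested kinases that dasatinib binds 2 were higher and 3 lower, beside 21.2% of all genes called. LYN and FYN were higher, by 1.43 and 1.34, and PTK6, EPHA2 and GAK were lower, by 1.71, 1.16 and 1.07 on the log2 scale. SRC differed by 0.02, YES1 by -0.02 and ABL1 by -0.08, none of them called. Among 22 integrins and laminins 2 were higher and 3 lower, beside the same 21.2% of all genes called. ITGB2, the beta chain of the leukocyte integrins, read 13.21 and 13.53 against 7.34 to 7.52, and ITGB7, another chain known from leukocytes, rose by 3.26. ITGA6 fell by 2.00, ITGA3 by 1.20, and LAMA4 was at least 1.99-fold lower.

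Markers of other cell types were read beside these lists. In bulk RNA, fewer cells of a type and less RNA per cell cannot be told apart. Of 15 fibroblast and stellate markers 3 were detected on any of the 6 arrays, and their list summed to an intensity of 3679 to 4534 on replicate 2 against 699 to 762 on the others. ACTA2 and LUM rose, while PDGFRA, PDGFRB, COL1A2, COL3A1, DCN, FAP and THY1 were not detected on any. COL1A1, detected on 2 of the 6 arrays, went the other way, with a difference of -0.64 that was not called. Of 19 acinar markers with a probe 6 were detected, the sums being 4590 to 5094 against 1746 to 1827. The trypsinogens PRSS1, PRSS2 and PRSS3, whose near-identical sequences leave the probes uncertain, rose, and CPA1, CELA3A, PNLIP and AMY2A were not detected. Of 17 haematopoietic markers 6 were detected on any array (1834 to 1897 against 1835 to 2389), with CD68 higher, CD79A and LYZ lower, and PTPRC and CD3D not detected. CD14 was detected on all 6 arrays. Endothelial markers had 3 of 12 detected (1053 to 1141 against 727 to 873), with CDH5 higher, ENG lower, and PECAM1, VWF and KDR not detected. Endocrine and neural markers had 5 of 22 detected (1583 to 1648 against 1631 to 2361), with INS, GCG and SST not detected. ENO2, the only called member, fell by 2.33 on the log2 scale, and CHGA was detected on 4 of the 6 arrays. Hepatocyte and intestinal markers had 2 of 21 detected (3943 to 4102 against 1553 to 1959), SERPINA1 being the higher gene. The part of such cells in the list counts was not tested.

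The question whether the 2 labelled lines shared the difference was not used in choosing the contrast and could be tested. The difference between replicate 2 and replicates 1 and 3 was compared between Panc0504 and Panc0403, with the spread taken from replicates 1 and 3 of all 6 lines, since each label had a single replicate 2 array. By limma 1484 of 10526 genes (14.1%) differed at an adjusted p under 0.05, and 585 (5.56%) by at least 1 as well, 302 of them (2.87% of genes) with a more positive difference in Panc0504. SMAD4, CDKN2A and CDH2 were not among them, with label differences of -0.21 ± 0.15, -0.16 ± 0.16 and 0.15 ± 0.14 (SE). These markers were on or off in both labels, with their dim state at background. Their label differences thus reflect mainly the bright state and are no test of sharing. Between the labels 67 genes were called in replicate 2 (0.637%) and 871 in replicates 1 and 3 (8.27%). The first count sets 1 array against 1 and the second 2 against 2, so the counts are not comparable in size.

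DNA replication genes stood out in this comparison and were picked for that reason. Of 32 chosen, 29 were tested, with label differences from 0.76 to 3.32. Because the genes were picked on these values, the differences describe them and are no test. MCM2, a subunit of the replicative helicase, read 10.03 and 9.95 on the replicate 2 arrays of Panc0403 and Panc0504, 9.91 and 10.12 on replicates 1 and 3 of Panc0403, and 6.83 and 7.24 on those of Panc0504. Only the last pair of arrays was low. The label difference of MCM2 was 2.90. MCM3 and the E2F family member E2F2 had label differences of 2.56 and 3.32. Over the 29 genes the median difference was 0.112 in Panc0403 and 2.25 in Panc0504. Of the 28 tested genes of the G1 cell cycle list 13 differed between the labels by at least 1, beside 5.56% of all genes, and 8 of these 13 are among the picked replication genes, so the list is no separate result. Its higher members CDC25A, a phosphatase that activates CDK2, and CCNE1, cyclin E1, differed by 1.56 and 0.73 in Panc0403 and by 3.22 and 2.25 in Panc0504. MCM3, another helicase subunit, was called over both labels but differed by 0.40 in Panc0403 alone, where it was not called.

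**Figure D5:**
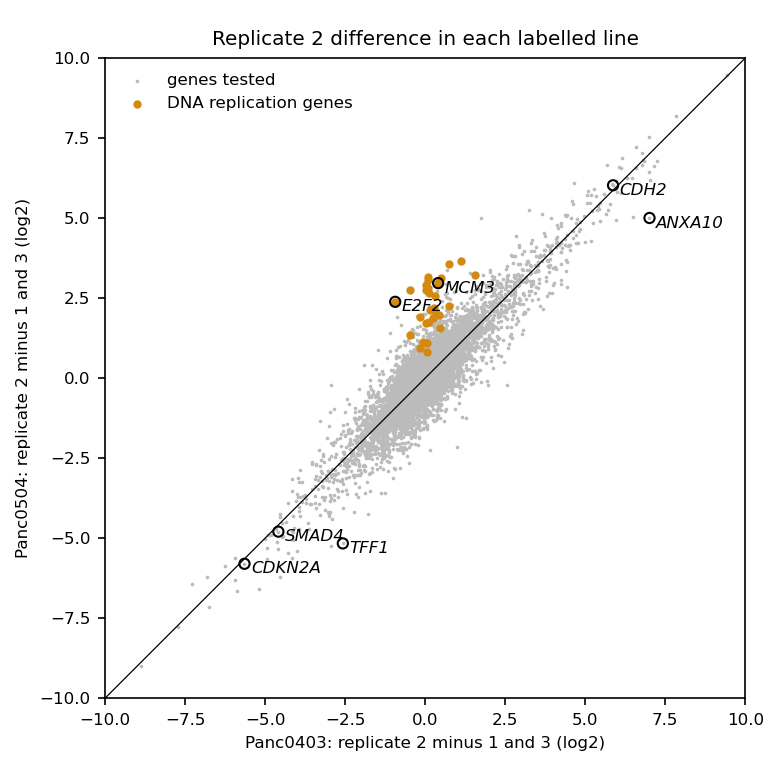
Each point is a gene, placed by its log2 difference between replicate 2 and replicates 1 and 3 in Panc0403 (horizontal) and in Panc0504 (vertical), with a line of equality. CDH2, CDKN2A and SMAD4 lie near the line, and the DNA replication genes lie above it, with medians of 0.112 and 2.25.

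Other genes also took different sizes in the 2 labels. TFF1, not detected on replicate 2, read 7.63 and 7.40 on replicates 1 and 3 of Panc0403 but 9.90 and 10.10 on those of Panc0504. ANXA10 read 5.91 and 5.56 on replicates 1 and 3 of Panc0403 and 7.69 and 7.43 on those of Panc0504. CDKN2B had a label difference of -1.45, its replicates 1 and 3 being brighter in Panc0504, and GCNT3 one of -1.68 (limma adjusted p = 0.00325 and 0.000461).

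On the other slides replicate 2 also differed from replicates 1 and 3, and the sizes were compared. The difference was set against that of slide 2 for all 10526 genes, of which 7858 (74.7%) differed at a limma adjusted p under 0.05 and 4336 (41.2%) by at least 1. Against slide 3 the numbers were 7583 (72%) and 4062 (38.6%). Because the slide 1 difference was known when the contrast was chosen, these counts and the gene values that follow are a description. On slide 2 SMAD4 read 8.91 and 9.09 on replicate 2 and was detected on all 6 arrays, a difference of -1.12, and on slide 3 it was detected on all 6 as well, a difference of -0.34. CDKN2A was off in replicate 2 of slide 2 too, and it was detected on none of the slide 3 arrays. MTAP, detected on replicate 2 here, was not detected on replicate 2 of slide 2.

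CDH2 was on in replicate 2 alone on all 3 slides, as were LDHB, a lactate dehydrogenase subunit, and DKK3, a secreted relative of Wnt antagonists. No other gene on in replicate 2 here was on in replicate 2 of both other slides, and 0 genes were off on all 3. Of the 128 genes on in replicate 2 here, 16 had the same pattern on slide 2 (12.5%) and 12 on slide 3 (9.38%). Among the 10526 genes tested here, 94 had that pattern on slide 2 and 150 on slide 3, so the shared genes made 17% and 8%. Genes detected on the other slides alone were not counted. The opposite pattern was held by 1 of the 128 on slide 2 and by 4 on slide 3. Of the 80 off genes, 2 were also off in replicate 2 of slide 2 and 4 were opposite, where 17 of the 10526 genes were off. On slide 3 the numbers were 2 and 8, where 53 of the 10526 genes were off. EEF1A2 was at least 364-fold lower in replicate 2 here but differed by 1.14 on slide 2 and -0.26 on slide 3. GSTP1 was higher by 6.90 here and differed by 0.62 and 0.08 there. The NF-kB driven list, with a median of 2.61 here, had medians of 0.03 and 0.10. Single members differed there too, CCL20 by 5.77 and 2.90, CXCL6 by 3.14 and -1.02 and LTB by -5.85 and 2.62 on slides 2 and 3. The HOX list, at 2.62 here, had medians of 1.71 and 1.60 there. The mesenchymal and motility list, at 0.94 here, had 0.497 and 0.835. Members of these lists were admitted by detection on the slide 1 arrays, so the medians do not compare the slides on equal terms. EFEMP1 and FST, on in replicate 2 here, differed by 6.79 and 4.42 on slide 2 and by 1.90 and 0.26 on slide 3. AKR1C2 was lower here but 6.08 higher on slide 2.

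Along the chromosomes the differences were not spread evenly. Over all genes tested on a chromosome the median difference was lowest on chromosome 15, at -0.53 over 340 genes, and on chromosome 20, at -0.44 over 302, and highest on chromosome 5, at 0.31 over 433. Chromosome 15 held 0 of the 128 genes on in replicate 2 and 5 of the 80 off in it, CEMIP and GCNT3 among them. In windows of 25 neighbouring tested genes the lowest medians were -0.83, on chromosome 20 from CEBPB to VAPB and on chromosome 1 from SETDB1 to S100A11, and the highest was 0.72, on chromosome 19 from CGB5 to PTOV1. The promoter windows of genes on in replicate 2 held a median of 20 CG dinucleotides and those of genes off in it 23, beside 28 over all tested genes with a window.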

How the data were processed

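Total RNA of 6 pancreatic cancer lines was read on 18 BeadChip arrays, 6 of them used here for the states and 12 for the comparison with other slides. The deposited intensity table held, per the file headers, a linear bead intensity and a detection p-value for 48107 probes on each array. The authors' series matrix held log2 values for 47323 probes, with column medians of 7.04 on the 6 arrays. It ranked probes as the intensities did, and its normalization, like the image software, is not given in the sources used here. RNA extraction and labelling followed column clean-up and biotinylated cRNA synthesis, per the labels' protocols.

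Intensities were corrected and quantile-normalized with neqc (offset 16) in limma 3.58.1, R 4.3.3, over 18 arrays. The annotation named 30113 probes with 1 symbol, 8 with several and 17202 of the matrix probes with none; 30074 matched a gene record. Each gene took its detected probe of highest mean, and 10526 of 19951 genes were detected (p under 0.01) on 2 or more of the 6 arrays. XIST and Y-linked genes were left out. Of 137 genes named by rule 45 had more than 1 detected probe, and the probes of 3 disagreed in sign, none by over 0.5 each way.

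The rule named SMAD4, CDKN2A, CDH2, every tested tumour suppressor, the 15 on and 15 off genes of largest bound, 3 called members per direction of each list, and 5 neighbours on each side of CDKN2A and SMAD4. Other genes are marked where they appear as picked after their values were seen, as were the single members listed as not called. Bounds set the bright state's mean against the lowest signal among detected probes on each dim array, or the probe's own where higher. The states were fitted with limma's lmFit and eBayes on the 6 arrays with the labelled line as a term, and the label and slide comparisons on 18 arrays, all adjusted by Benjamini-Hochberg over 10526 genes. The fits were tested on simulated data. The members and the 25 gene lists were chosen with earlier results of these data known. The labels call replicates biological, without naming separate cultures, so p-values measure the spread between these arrays. Precision is limited by the number of arrays. Alternatives covered background correction, offset, the series matrix, detection filters, probes, left-out arrays and the 18-array fit.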

Additional observations from a re-analysis of the deposited data

Results flagged for a closer look

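The replicate 2 difference was not of one size in the 2 labelled lines for 1484 of 10526 genes by limma's interaction contrast, as the report gives. Of 196 genes that the text gives values for, 40 were among them. The label difference, Panc0504 minus Panc0403 on the log2 scale, is given for each; where a gene was not detected in a state, that state's part of it is a value at background. The difference was most positive for E2F2 (3.32), MCM2 (2.90), MCM3 (2.56), CDC25A (1.66), PIGR (1.59), CCNE1 (1.52), GNG11 (1.48) and GAS6 (1.21). Smaller positive label differences were those of BRCA1 (1.10), CXCL8 (0.94), LTBP2 (0.76), SLC1A3 (0.72), LTB (0.66), VSIG2 (0.65) and CDH5 (0.62). Negative label differences of largest size were those of TFF1 (-2.59), ANXA10 (-2.01), GCNT3 (-1.68), AKR1C4 (-1.48), CDKN2B (-1.45), AKR1C2 (-1.40), CEACAM5 (-1.39), SLPI (-1.21) and EFNB1 (-1.11). Next came CD79A (-1.09), NR5A2 (-1.03), IFI27 (-1.02), ITGA6 (-1.01), ISG20 (-0.95), CLDN3 (-0.94), ESRP1 (-0.93), COL4A1 (-0.90) and CD68 (-0.83). The remaining negative ones were those of GSTM2 (-0.77), GSPT2 (-0.73), HES1 (-0.71), PTK6 (-0.68), SPRR3 (-0.67), IRF7 (-0.63) and NETO2 (-0.54).

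The replicate 2 difference on slide 1 also departed from that of slide 2 for 7858 genes and from that of slide 3 for 7583. For SMAD4 the departures were -3.57 and -4.35, for CDKN2A -0.51 and -5.68, and for CDH2 1.12 and 1.12 on the log2 scale, with the same limit for undetected states.

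For 8 of the 196 genes a single array stood far from the other 3 of replicates 1 and 3, by Dixon's test. A level of 6.12 in HOXB8, on replicate 1 of Panc0403, was the most distant. The outlying levels were 8.85 for ABL1, 4.76 for CDH2, 4.83 for CXCL6, 12.99 for KRT7, 7.68 for MEX3C, 10.38 for SRC and 11.96 for TGFBR2, all within 0.5 of the nearest other array. Chance flags about 5% of groups in this test.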

How the results depend on the processing

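Counts of genes called between the states fell from 2228 to 1389 without background correction, to 1458 on the authors' log2 values and to 1299 among 8404 genes detected on all 6 arrays, a filter that by construction drops genes off in a state. Genes on in one state and off in the other numbered 108 with an offset of 50, 62 without background correction and 76 on the authors' values, settings that compress low signals, and 375 with a gap of 2 in place of 3, against 208; the filter on all 6 arrays leaves none by construction. The label and slide counts stayed within 1.5 times of theirs under every alternative run. Leaving out 1 array or 1 replicate number at a time gave 2102 to 2625 called genes, 203 to 222 on or off genes, 1024 to 1521 genes with a label difference, and 7650 to 7821 and 7384 to 7529 genes that differed from slides 2 and 3. Where 1 replicate 2 array remained, it was assumed to vary like the others. The leave-outs of the label and slide counts, and the on or off counts within Panc0403 alone (216) and Panc0504 alone (250), were added after the data were seen.

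Of 120 called genes among the 137 named by rule, 102 kept the call under every alternative and 18 lost it in at least 1, while 0 of 137 reversed. Those 18 were CCNE1, CD79A, CDC25A, DMRTA1, DSC2, ENG, EPHA2, GAK, ISG20, KDM6A, LAMA4, MCM3, MEX3C, MUC1, NR5A2, SKA1, SOX2 and TGFB3. MCM3 fell to 0.40 without Panc0504 replicate 2 and CCNE1 to 0.73, and ISG20 to -0.53. No paired analysis was possible because the replicate number is itself the contrast. Probes near background limit every bound.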
